A study of Mus musculus with 8 samples.

Results

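The genes described here are 8 that encode subunits of Polycomb repressive complex 1 (PRC1), namely Cbx2, Cbx6, Cbx7, Cbx8, Bmi1, Pcgf2, Ring1 and Rnf2. They were chosen by name, out of 18193 genes with a probe set of their own on the array, and every probe set assigned to 1 of them alone was taken, which gave 19 probe sets. The material was mouse embryonic stem (ES) cells measured on Affymetrix GeneChip arrays for mouse, in 4 groups of 2 arrays. The groups were Rbp2f/f cells, in which the gene for RBP2 is flanked by recombination sites and intact, and Rbp2-/- cells, in which it is deleted, each kept with leukemia inhibitory factor (LIF) or deprived of LIF for 6 days. RBP2 is the histone H3 lysine 4 demethylase now named KDM5A. The labels call the samples biological replicates and do not say which clones or cultures they came from, so a p-value here reflects only how far these samples spread, which may be technical.

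PRC1 is a chromatin complex that attaches ubiquitin to histone H2A and compacts nucleosomes at developmental genes. Its enzymatic core is RING1 or RNF2 (also called RING1A and RING1B) bound to 1 of the PCGF proteins. In the canonical complex that PCGF protein is BMI1 or PCGF2, and a chromobox (CBX) protein reads the histone H3 lysine 27 methylation placed by Polycomb repressive complex 2. In ES cells CBX7 is known as the main chromobox subunit, and it is known to give way to CBX2 and CBX8 as the cells differentiate, an exchange called the CBX switch.

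Intensities were quantile normalized between arrays because 1 array, replicate 2 of Rbp2-/- with LIF, was dim as deposited, with a trimmed mean of 77.5 against 110.5 to 128.4 on the other arrays. Kdm5a, the deleted gene, gave 134 and 168 on the Rbp2f/f arrays with LIF, where the Rbp2-/- arrays gave 34.1 and 43.5. After withdrawal the Rbp2f/f arrays gave 210 and 225 and the Rbp2-/- arrays 95 and 66.8, so the groups were separate in both media. The Kdm5a signal was called higher after withdrawal in Rbp2-/- (log2 difference 0.81 ± 0.22, limma adjusted p = 0.0355). In Rbp2f/f its rise of 0.49 ± 0.22 did not pass (limma adjusted p = 0.125). What that remaining signal in Rbp2-/- comes from was not tested. Where its probes lie relative to the deleted bases was not analysed here. ES cell markers such as Pou5f1 and Nanog were present with LIF, and the summed signal of 10 such markers was 18840 to 23520 with LIF and 3515 to 4753 without. The summed signal of 12 feeder fibroblast markers was 451 to 927 with LIF and 1498 to 4061 without, highest in replicate 1 of Rbp2-/- without LIF, and 2 of the 12, Dcn and Lum, were too dim to be tested. Their part in the results that follow was not tested.

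The first question was how transcripts of the chromobox subunits differ after LIF withdrawal. Cbx7 fell in both genotypes, to 15.3% of its level with LIF in Rbp2f/f and to 20.3% in Rbp2-/-, while Cbx2 rose 1.65-fold in Rbp2f/f. In Rbp2f/f, Bmi1 rose 2.57-fold, and no other tested member passed the test there. In Rbp2-/- Cbx7 alone passed. In bulk RNA, fewer cells with a transcript and less of it per cell cannot be told apart.

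Cbx7 encodes the chromobox protein with a single chromodomain that is typical of self-renewing ES cells. With LIF its brightest probe set gave 539 and 690 on the Rbp2f/f arrays, and 107 and 81.1 after withdrawal. The Rbp2-/- arrays read 418 and 453.5 with LIF, and 82.9 and 93.85 without. All 4 arrays with LIF were above all 4 arrays without LIF, and the lowest reading with LIF was several times the highest reading without. The log2 difference was -2.52 ± 0.20 (SE, n = 2 per group) in Rbp2f/f, with a limma adjusted p of 0.000167. In Rbp2-/- the log2 difference was -2.11 ± 0.20, with a limma adjusted p of 0.000312. In Rbp2f/f 0.559% of the 10916 genes tested had a difference as low as that of Cbx7 or lower, and in Rbp2-/- 1.16% had. The second Cbx7 probe set, named by the manufacturer as one that matches several transcripts, read 80.8 and 225 with LIF and 24.0 and 22.7 without in Rbp2f/f. Its Rbp2-/- values were 190 and 155 with LIF and 31.2 and 13.6 without. It too was lower without LIF on every array, with log2 differences of -1.96 ± 0.42 and -2.33 ± 0.42 (limma adjusted p = 0.0326 and 0.0282 over 45037 probe sets). The third was dim, at 10.3 to 28.2 over the 8 arrays, and its differences did not pass.

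The bases before the start of Cbx7 are shown with those of Cbx6, which lies on the same chromosome with 1 protein-coding gene, Apobec3, between them, and of Bmi1, the gene that rose most among the members in Rbp2f/f. Each run holds the 250 bases upstream of the start in RefSeq (build GRCm38.p6), read 5′ to 3′ on the gene's strand. Capitals mark GGGCGG or its other-strand form CCGCCC, the core of the GC box, which is also the motif that the DNA-binding domain of RBP2 is known to recognise.
Cbx7 (chr15:79932647-79932896, minus strand): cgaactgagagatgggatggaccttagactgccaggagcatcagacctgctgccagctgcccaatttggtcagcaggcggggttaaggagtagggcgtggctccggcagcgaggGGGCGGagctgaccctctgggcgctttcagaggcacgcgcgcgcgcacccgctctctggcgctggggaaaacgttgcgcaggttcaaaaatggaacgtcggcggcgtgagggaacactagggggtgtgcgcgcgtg
Cbx6 (chr15:79834334-79834583, minus strand): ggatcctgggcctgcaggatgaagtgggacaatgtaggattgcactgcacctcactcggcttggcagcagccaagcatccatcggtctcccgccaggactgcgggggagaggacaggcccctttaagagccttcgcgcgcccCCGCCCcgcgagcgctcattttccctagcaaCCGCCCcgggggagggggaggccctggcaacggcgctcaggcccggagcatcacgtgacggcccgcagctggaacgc
Bmi1 (chr2:18676768-18677017, plus strand): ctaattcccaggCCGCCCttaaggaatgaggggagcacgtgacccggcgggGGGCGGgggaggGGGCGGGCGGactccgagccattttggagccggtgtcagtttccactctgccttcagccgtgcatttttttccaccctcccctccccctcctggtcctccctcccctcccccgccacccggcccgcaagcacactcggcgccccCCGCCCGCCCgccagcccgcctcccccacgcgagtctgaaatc

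Promoters were listed for 7 of the 8 members, and all 7 held GGGCGG or CCGCCC, against 32.7% of 32851 promoters of the same length. Cbx7 had 1 match, Cbx6 2 and Bmi1 6, some of which overlap each other, and Ring1 and Rnf2, which did not pass the test on withdrawal, had 2 each. Of the 7 promoters 6 had 20 or more CpG dinucleotides (the median over all promoters was 6), and among the 5896 promoters with that many, 80.9% held the motif. The E-box CACGTG, which reads the same on both strands, was in 4 of the 7 (Cbx6, Cbx8, Bmi1 and Pcgf2), against 6.02% of all promoters and 10.1% of those rich in CpG. CCAAT or its other-strand form ATTGG was in 2, Cbx7 and Cbx8, against 33.8%. The octamer core ATGCAAAT or ATTTGCAT was in 0 of 7, against 1.6%. No match of 1 of these 4 motifs shared bases with a match of another. A match describes letters in the window and shows no binding.

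Cbx2 encodes a chromobox protein with a nucleosome-compacting region, and lies beside Cbx8. The brighter of its probe sets gave 160 and 152 on the Rbp2f/f arrays with LIF, and 263 and 249 after withdrawal. Cells lacking RBP2 gave 201 and 178 with LIF, and 249.9 and 278 without. Every array without LIF was above every array with LIF, in the opposite sense to Cbx7. The log2 difference was 0.66 ± 0.17 in Rbp2f/f (limma adjusted p = 0.0203). In Rbp2-/- it was 0.45 ± 0.17, which missed the threshold (limma adjusted p = 0.111). The rise in Rbp2f/f missed the threshold on the values as deposited (limma adjusted p = 0.0546) and with the mean of both probe sets (0.232). It also missed when any 1 of the 4 Rbp2f/f arrays was left out. Dropping replicate 1 or 2 grown with LIF gave 0.0575 and 0.0686, and dropping replicate 1 or 2 deprived of it gave 0.117 and 0.108 (limma adjusted p). The second Cbx2 probe set was uneven between replicates, at 4.79 and 77.3 on the Rbp2f/f arrays with LIF and 39.4 and 43.6 without. Readings in Rbp2-/- were 59.6 and 54.8 with LIF and 121 and 103 without. Its groups overlapped in Rbp2f/f and not in Rbp2-/-, and neither difference passed (0.38 ± 0.58 and 0.80 ± 0.58).

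Cbx6 encodes a chromobox protein whose part in PRC1 is less well described. On the Rbp2f/f arrays its brighter probe set gave 130 and 202 with LIF, and 98.3 and 106 after withdrawal. On the Rbp2-/- arrays it gave 118 and 153 with LIF, and 137 and 114 without. The Rbp2f/f groups did not overlap and the Rbp2-/- groups did. The log2 differences were -0.60 ± 0.24 (limma adjusted p = 0.088) and -0.09 ± 0.24 (0.831), neither past the threshold. The second probe set, which matches several transcripts by the manufacturer's naming, read 180 and 220 in Rbp2f/f with LIF against 84.1 and 109 without. Its difference of -0.95 ± 0.21 passed over all probe sets (limma adjusted p = 0.0359). In Rbp2-/- that probe set read 121 and 98.9 with LIF and 103 and 97.4 without, a difference of -0.11 ± 0.21 (limma adjusted p = 0.874). With the mean of both probe sets Cbx6 was called lower in Rbp2f/f, at -0.77 (limma adjusted p = 0.0206). The brighter probe set was also called when replicate 1 of the Rbp2f/f group with LIF was left out (-0.88, limma adjusted p = 0.043), and stood at -0.31 (0.381) when replicate 2 of that group was left out.

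Cbx8 encodes a chromobox protein known from differentiated cells. Its brighter probe set read 9.75 and 12.8 on the Rbp2f/f arrays with LIF, and 34.6 and 4.99 without. The Rbp2-/- arrays read 24.7 and 5.15 with LIF, and 23.8 and 24.5 without. The replicates lay close together for Rbp2-/- without LIF and Rbp2f/f before withdrawal and far apart in the other groups, and the groups overlapped in both withdrawals and both genotype comparisons. Its mean over the arrays, 17.5, was under the 28.3 needed to be tested, so it was left out of the test. With no filter its log2 differences on withdrawal were 0.26 ± 0.43 in Rbp2f/f and 0.45 ± 0.43 in Rbp2-/- (limma adjusted p = 0.77 and 0.612). Its other probe set read 1.3 to 5.7.

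**Figure D1:**
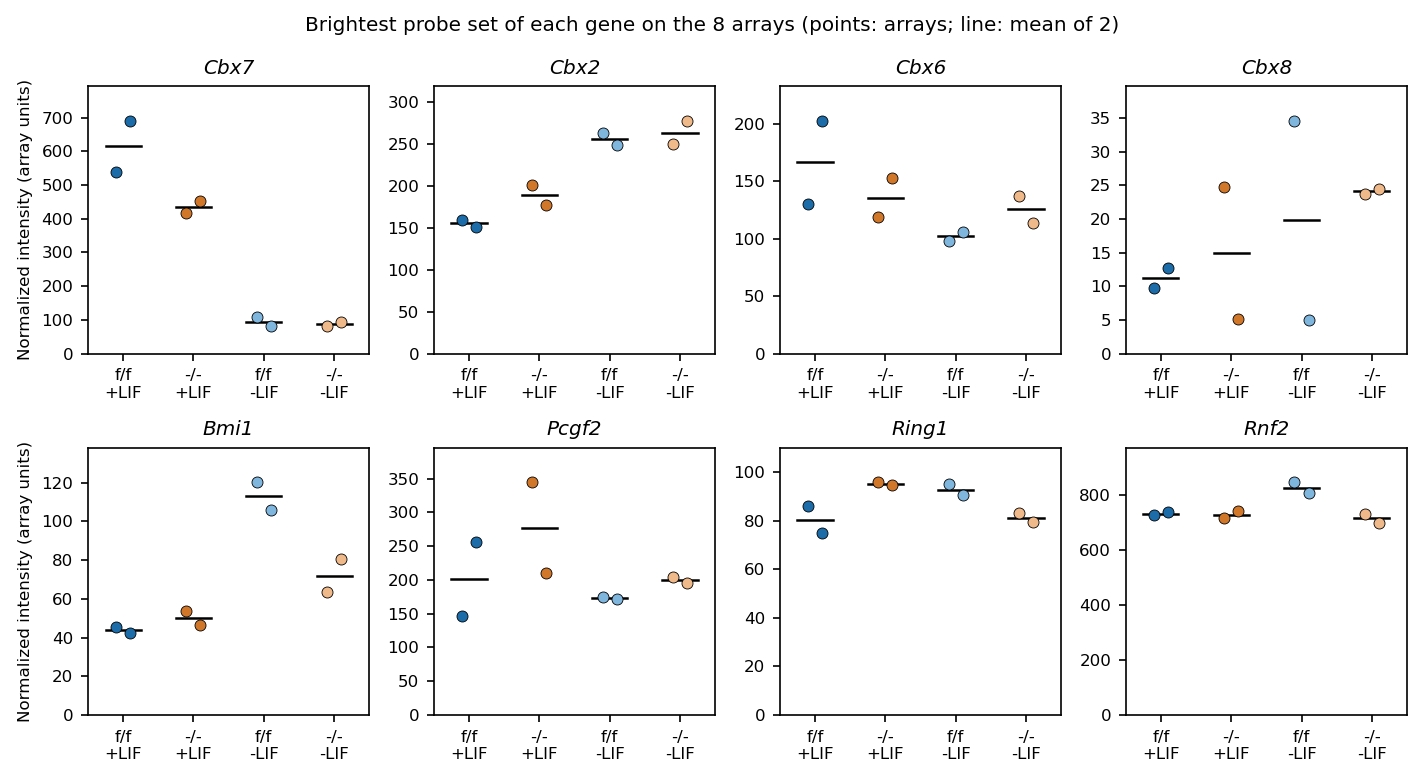
Quantile-normalized intensity (array units, each panel with its own axis from 0) of the brightest probe set of each member in the 4 groups, with 1 point per array and a line at the mean of 2. Cbx7 stood at 418 to 690 with LIF and at 81.1 to 107 without, Cbx2 and Bmi1 were higher without LIF in both genotypes, and the Cbx8 groups overlapped, with replicates of 34.6 and 4.99 in Rbp2f/f without LIF.

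Bmi1 and Pcgf2 encode the alternative PCGF subunits of canonical PRC1, also known as PCGF4 and MEL18, which help RING1 and RNF2 ubiquitinate histone H2A. Bmi1 read 45.4 and 42.5 on the Rbp2f/f arrays with LIF, and 120 and 106 without. Its Rbp2-/- values were 53.8 and 46.4 with LIF, and 63.4 and 80.6 without. The groups did not overlap in either genotype, and the arrays of Rbp2-/- without LIF lay between those of Rbp2f/f without LIF and all arrays with LIF. The log2 difference was 1.10 ± 0.21 in Rbp2f/f (limma adjusted p = 0.00553). It was 0.41 ± 0.21 in Rbp2-/- (limma adjusted p = 0.21). The rise in Rbp2f/f lost its call without replicate 1 of Rbp2f/f lacking LIF (limma adjusted p = 0.0502), and was at 0.0499 there with the tested genes of all 8 arrays kept. The dimmer Bmi1 probe set read 11.4 and 2.80 against 42.1 and 46.9 in Rbp2f/f, and 0.963 and 11.2 against 22.3 and 16.9 in Rbp2-/-. It was higher without LIF on every array, by 1.41 ± 0.31 in Rbp2f/f (limma adjusted p = 0.0339) and 0.72 ± 0.31 in Rbp2-/- (0.282).

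Pcgf2 read 147 and 256 on the Rbp2f/f arrays with LIF, and 175 and 172 without. Cells lacking RBP2 gave 345 and 210 with LIF, and 204 and 195 without. The arrays with LIF differed more from each other than the groups did. Its log2 differences were -0.15 ± 0.28 in Rbp2f/f and -0.41 ± 0.28 in Rbp2-/- (limma adjusted p = 0.727 and 0.367). The 95% intervals were -0.79 to 0.49 and -1.05 to 0.23, so a moderate fall would have been missed. The second Pcgf2 probe set read 53.7 to 88.0 over the 8 arrays and did not pass either.

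Ring1 and Rnf2 encode the alternative E3 ubiquitin ligases. Rnf2 read 728 and 739 on the Rbp2f/f arrays with LIF, and 847 and 807 without. Readings in Rbp2-/- were 716 and 743 with LIF, and 732 and 699.8 without. The 8 arrays thus lay within a narrow span, and the 95% intervals of the withdrawal difference were -0.16 to 0.50 in Rbp2f/f and -0.35 to 0.30 in Rbp2-/-. Neither passed (0.17 ± 0.15 and -0.03 ± 0.15, limma adjusted p = 0.419 and 0.928). A second bright Rnf2 probe set read 384 to 598 with LIF and 607 to 678 without, higher without LIF on every array, and its differences of 0.41 ± 0.23 and 0.38 ± 0.23 did not pass (limma adjusted p = 0.374 and 0.474). The other 3 Rnf2 probe sets were at or under 42.8 on every array. Ring1, with 1 probe set, read 86.2 and 74.8 on the Rbp2f/f arrays with LIF, and 94.98 and 90.7 without. On the Rbp2-/- arrays it gave 95.8 and 94.6 with LIF, and 83.2 and 79.4 without. The means were higher without LIF in Rbp2f/f and lower in Rbp2-/-, with differences of 0.18 ± 0.18 and -0.19 ± 0.18 that did not pass (limma adjusted p = 0.506 and 0.511).

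Of the 7 members tested, 3 were called in Rbp2f/f, where 27.2% of all genes tested were called. In Rbp2-/- 1 of 7 was called, where 15.5% of all genes were. The arrays of the groups did not overlap for 6 of 7 members in Rbp2f/f and 5 of 7 in Rbp2-/-, against 68.6% and 58.7% of all genes. The median log2 difference of the 7 was 0.17 and -0.09, against -0.02 and 0.0009 over all genes. At an unadjusted p under 0.05 limma counted 4 and 2 of the 7, against 40.3% and 31.2% of all genes. With 7 members, shares this close to the background are not a result about the set.

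**Figure D2:**
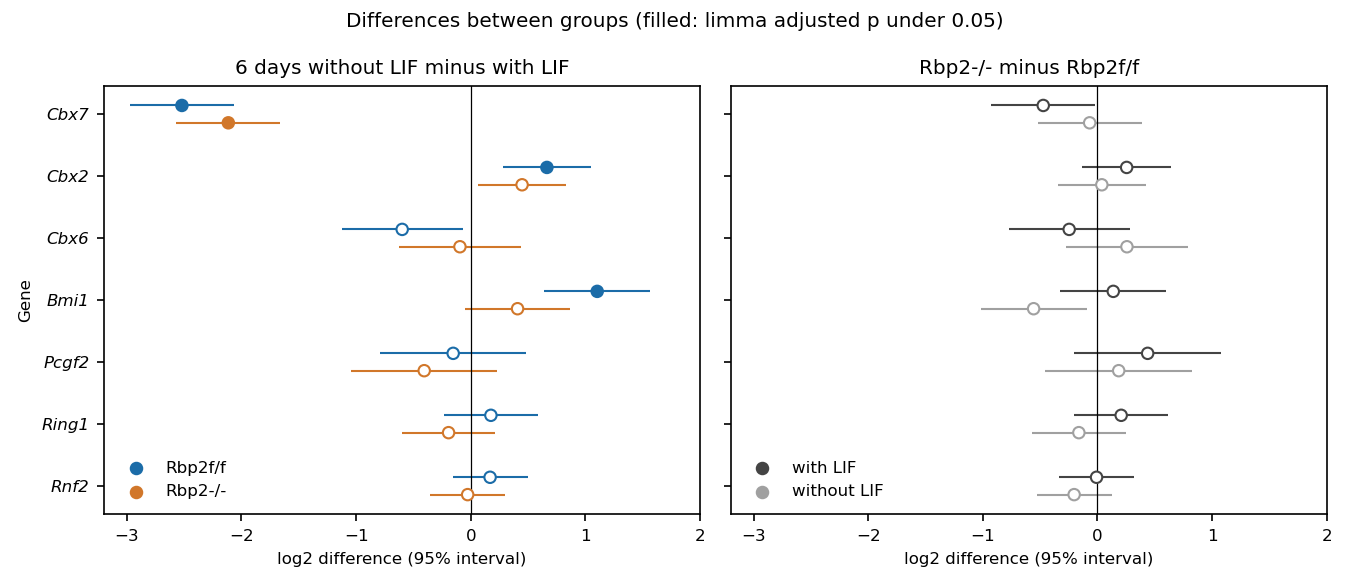
Log2 differences of the 7 tested members with 95% intervals (horizontal axis), on LIF withdrawal in each genotype (left) and between genotypes in each medium (right), filled where limma adjusted p was under 0.05. Cbx7 is at -2.52 and -2.11 on withdrawal, Cbx2 and Bmi1 are filled in Rbp2f/f alone, and the genotype panel has no filled point.

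**Figure D3:**
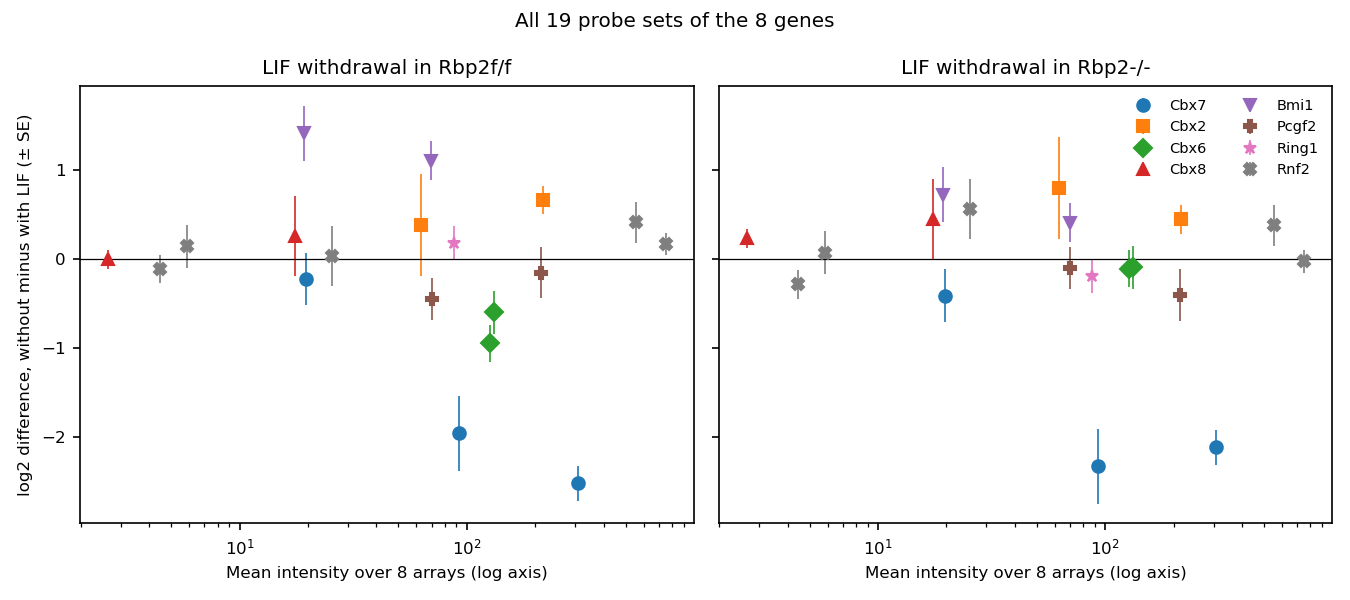
Log2 difference on LIF withdrawal (± SE, vertical axis) of all 19 probe sets against their mean intensity over the 8 arrays (log axis), in each genotype. Both brighter Cbx7 probe sets lie near -2 or lower, both Bmi1 probe sets lie above 0, and the 3 probe sets of Rnf2 and 2 of Cbx8 at the dim end lie near 0 or have wide errors.

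The genotypes were compared next, to ask whether the members differ when RBP2 is lost. No member passed in either medium, and none of the 10916 genes did (0%). Kdm5a, the deleted gene, did not pass either, at -1.60 ± 0.22 with LIF and -1.28 ± 0.22 without (limma adjusted p = 0.0708 and 0.114). A lack of calls here therefore does not show that the genotypes are alike. At an unadjusted p under 0.05 limma counted 1429 genes with LIF (13.1%) and 1553 without (14.2%), with 1 of the 7 members in each, Cbx7 and Bmi1 respectively. The arrays did not overlap for 4 of 7 members with LIF and 5 of 7 without, against 40.1% and 55.2% of all genes. With LIF, Cbx7 was lower in both Rbp2-/- arrays than in both Rbp2f/f arrays, at 70.9% of the Rbp2f/f mean. That difference was -0.47 ± 0.20 (95% interval -0.93 to -0.02, limma adjusted p = 0.365), and the other Cbx7 probe sets had the opposite sign, 0.30 ± 0.42 and 0.32 ± 0.29. Without LIF the Cbx7 groups overlapped (-0.07 ± 0.20, 95% interval -0.52 to 0.39). Bmi1 without LIF was lower in both Rbp2-/- arrays on both probe sets. The brighter stood at 63.7% of the Rbp2f/f mean, a difference of -0.56 ± 0.21 (95% interval -1.02 to -0.09, limma adjusted p = 0.268). The remaining 5 tested members had differences between -0.25 and 0.44 with LIF and between -0.20 and 0.26 without.

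Whether withdrawal acted differently by genotype was tested as an interaction, the withdrawal difference in Rbp2-/- minus that in Rbp2f/f. It called 0 members and 0 of all genes (0%), with 1214 genes (11.1%) and 1 member, Bmi1, at an unadjusted p under 0.05. For Bmi1 it was -0.70 ± 0.29 (95% interval -1.35 to -0.04, limma adjusted p = 0.438), and for Cbx7 0.41 ± 0.29 (-0.24 to 1.05, adjusted p = 0.609). For Cbx2 it was -0.22 ± 0.24 (-0.76 to 0.33, adjusted p = 0.758). Withdrawal differences of these genes, although called in Rbp2f/f and for Cbx2 and Bmi1 not in Rbp2-/-, were therefore not shown to differ between genotypes. The second Cbx6 probe set had an interaction of 0.84 ± 0.30, which did not pass over all probe sets (limma adjusted p = 0.642).

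Of the other subunits of canonical PRC1, 6 were measured and 5 passed the filter on low values, Scml4 being too dim. In Rbp2f/f 2 rose and 2 fell, against 14.0% of all genes higher and 13.1% lower, and in Rbp2-/- 0 rose and 2 fell, against 7.28% and 8.24%. Phc1, a polyhomeotic subunit whose SAM domain polymerises, read 1912 and 2724 on the Rbp2f/f arrays with LIF and 507 and 487 without. The Rbp2-/- arrays read 3655 and 2904 with LIF, and 751 and 805 without. Every array with LIF was above every array without it, and the log2 differences were -2.16 ± 0.19 and -2.04 ± 0.19 (limma adjusted p = 0.000233 and 0.000304). Its paralog Phc2 read 521 and 367 on the Rbp2f/f arrays with LIF and 848 and 912 without, a rise of 0.98 ± 0.24 (limma adjusted p = 0.015). In Rbp2-/- Phc2 read 459 and 701 against 694 and 776, and the groups overlapped. Scmh1, a subunit related to the fly Polycomb protein Sex comb on midleg, fell by 0.99 ± 0.22 in Rbp2f/f and by 1.12 ± 0.22 in Rbp2-/- (limma adjusted p = 0.0108 and 0.00999). The fall of Scmh1 in Rbp2-/- missed the threshold on the values as deposited (limma adjusted p = 0.0843). Scml2 of the same family rose by 0.89 ± 0.26 in Rbp2f/f (limma adjusted p = 0.0317). Phc3 was at 0.35 ± 0.26 and 0.19 ± 0.26 and did not pass.

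Variant PRC1 complexes lack a chromobox protein of this kind and are built on RYBP or YAF2 with other PCGF subunits. Of 28 listed names 25 were measured and tested. In Rbp2f/f 4 rose and 6 fell, against 14.0% and 13.1% of all genes, and in Rbp2-/- 2 rose and 3 fell, against 7.28% and 8.24%. Those counts are near the background, so single genes are described here and not the list. The median was -0.27 and -0.23, against -0.02 and 0.0009 over all genes. On the values as deposited, where all genes shifted by a median of 0.39 in Rbp2-/-, the list's median there was 0.20. The calls were then 3 higher and 2 lower in Rbp2f/f and 2 higher and 1 lower in Rbp2-/-. The shares of all genes above are from the normalized values, so they are no background for these calls. Yaf2 read 127 and 245 on the Rbp2f/f arrays with LIF and 539 and 494 without, a rise of 1.46 ± 0.27 (limma adjusted p = 0.00572). In Rbp2-/- it rose by 1.54 ± 0.27 (0.00666). Bcorl1, a corepressor related to BCOR, rose by 1.74 ± 0.28 and 1.5 ± 0.28, from 8.76 and 6.44 to 65.3 and 60.2 in Rbp2f/f and from 29.1 and 12.2 to 73.5 and 97.1 in Rbp2-/-. Dcaf7, a WD40 scaffold protein, rose by 1.00 ± 0.19 in Rbp2f/f (limma adjusted p = 0.00633).

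Pcgf6, the PCGF subunit of 1 form of variant PRC1, read 668 and 725 on the Rbp2f/f arrays with LIF and 381 and 327 without. Its Rbp2-/- values were 827 and 869 with LIF, and 325 and 352 without. The groups were separate in both genotypes, and Pcgf6 fell by 0.95 ± 0.16 and 1.29 ± 0.16 (limma adjusted p = 0.00408 and 0.00133). L3mbtl2, a protein with malignant brain tumor repeats found in variant PRC1, fell by 0.78 ± 0.18 and 0.96 ± 0.18 (limma adjusted p = 0.0121 and 0.00786), and both calls were lost on the values as deposited (0.0899 and 0.167). Usp7, a deubiquitinase found with PRC1, fell by 1.07 ± 0.14 in Rbp2f/f (limma adjusted p = 0.00137) and stood at -0.47 in Rbp2-/- (0.0531). Pcgf1, Kdm2b and Bcor, which form the complex that reads unmethylated CpG islands, did not pass.

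**Figure D4:**
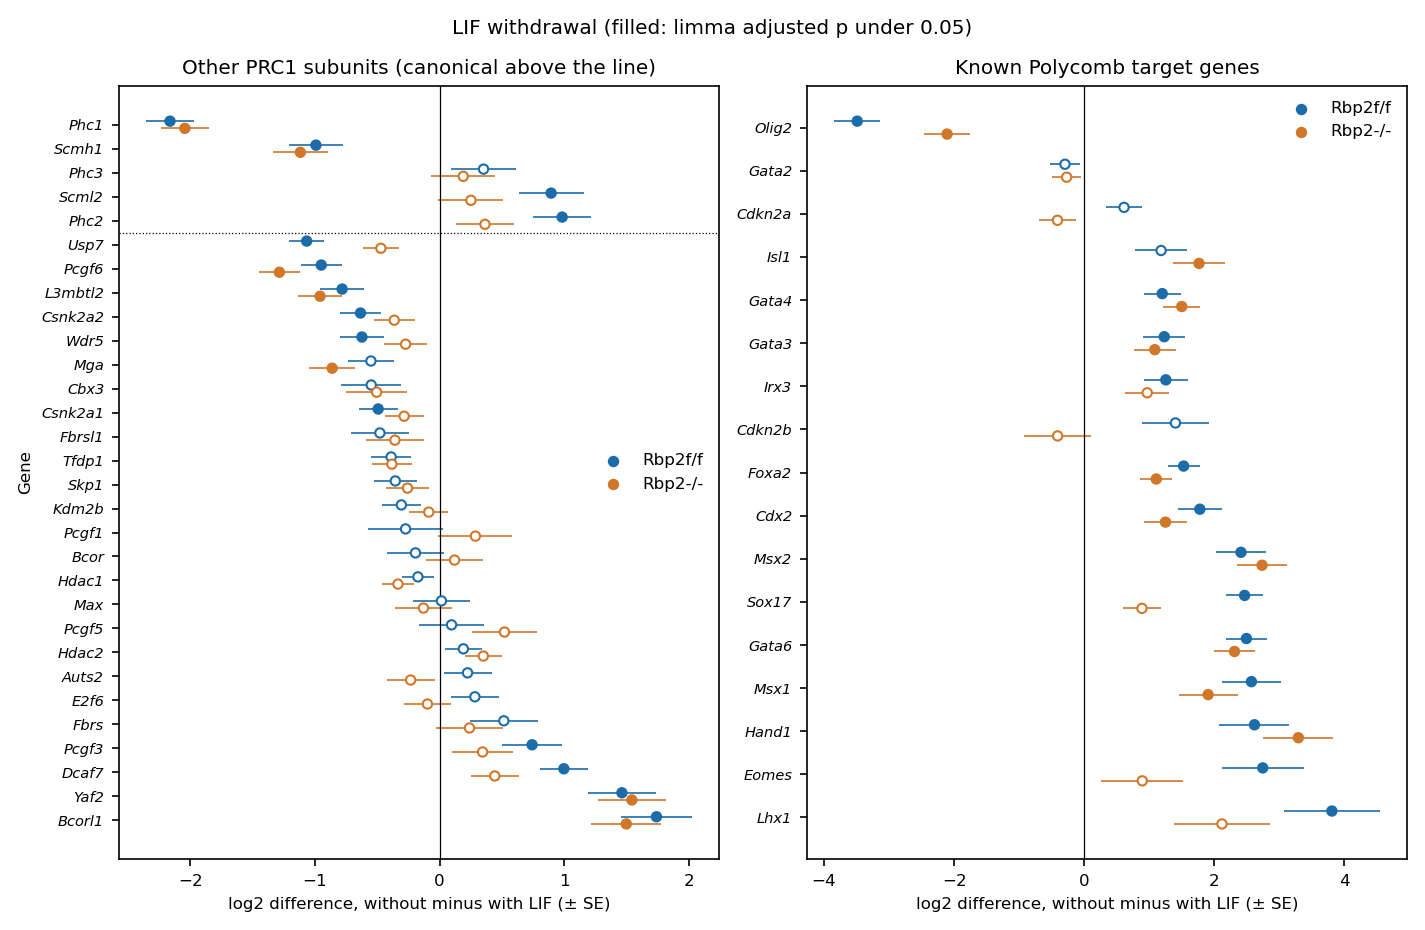
Log2 difference on LIF withdrawal (± SE, horizontal axis) for other PRC1 subunits (left, canonical above the dotted line) and known Polycomb targets (right), with Rbp2f/f in blue and Rbp2-/- in orange, filled where limma adjusted p was under 0.05. Phc1 lies near -2 in both genotypes, Yaf2 and Bcorl1 near 1.5, and most targets lie right of 0 with Olig2 far to the left in both genotypes, Gata2 slightly left in both, and Cdkn2a and Cdkn2b left in Rbp2-/-.

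Enzymes that remove ubiquitin from histone H2A, and their partners, were tested for 11 of 11 names. In Rbp2f/f 2 rose and 2 fell, against 14.0% of all genes higher and 13.1% lower, and in Rbp2-/- 3 rose and 0 fell, against 7.28% and 8.24%. With 11 genes the counts in Rbp2f/f are near the background and say nothing particular of the list. With no filter, an alternative added after the data were seen, 1 rose in Rbp2-/-. The count in Rbp2-/- is therefore not read as a result about the list either. Usp3, an H2A deubiquitinase, read 117 and 141 on the Rbp2f/f arrays with LIF and 262 and 222 without. It rose by 0.83 ± 0.18 in Rbp2f/f and 0.91 ± 0.18 in Rbp2-/- (limma adjusted p = 0.0106 and 0.0108). Foxk1, a forkhead factor that binds the deubiquitinase BAP1, rose by 0.57 ± 0.18 and 0.70 ± 0.18 (limma adjusted p = 0.0451 and 0.0325). Its paralog Foxk2 rose by 0.72 ± 0.21 in Rbp2-/- (limma adjusted p = 0.045). Asxl1 and Asxl2, cofactors of BAP1, fell by 0.67 ± 0.21 and 0.91 ± 0.20 in Rbp2f/f (limma adjusted p = 0.0384 and 0.011), and both calls were lost on the values as deposited (0.198 and 0.0548). Asxl1 was also lost with median centring (0.0606). Asxl2 was already lower in Rbp2-/- with LIF, at 71.4 and 66.0 against 127 and 130 in Rbp2f/f, a difference between genotypes that did not pass.

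Developmental genes known as Polycomb targets in ES cells were measured for 26 of 27 names, and 17 passed the filter, which a gene high only after withdrawal can pass through those arrays. In Rbp2f/f 12 of the 17 rose and 1 fell, against 14.0% of all genes higher and 13.1% lower, and in Rbp2-/- 9 rose and 1 fell, against 7.28% and 8.24%. The median was 1.53 and 1.11, over the genes that passed the filter. With no filter 11 of 26 rose and 1 fell in Rbp2f/f, and 7 rose and 1 fell in Rbp2-/-. The medians were then 1.19 and 0.50, against -0.02 and -0.01 over all genes. That alternative was added after the data were seen, and the shares of all genes given above are those with the filter. Gata6, a primitive endoderm factor, read 47.9 and 15.1 on the Rbp2f/f arrays with LIF and 281 and 197 without. Cells lacking RBP2 gave 43.0 and 49.9 with LIF, and 304 and 283 without, and its rises were 2.50 ± 0.32 and 2.31 ± 0.32 (limma adjusted p = 0.0011 and 0.00193). Sox17, an endoderm factor, read 9.85 and 6.24 in Rbp2f/f with LIF against 141 and 96.3 without, a rise of 2.47 ± 0.29 (limma adjusted p = 0.000696). In Rbp2-/- Sox17 read 13.0 and 12.3 against 27.7 and 48.3, at 0.89 ± 0.29 (0.0659). Msx1 and Msx2, homeobox genes of mesoderm and neural crest, rose by 2.57 ± 0.45 and 2.41 ± 0.38 in Rbp2f/f and by 1.91 ± 0.45 and 2.74 ± 0.38 in Rbp2-/-. Foxa2, an endoderm and node factor, rose by 1.53 ± 0.25 and 1.11 ± 0.25. Olig2, a neural progenitor factor, fell by 3.49 ± 0.36 in Rbp2f/f, from 271 and 368 to 8.50 and 19.6, and by 2.11 ± 0.36 in Rbp2-/-.

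Cdkn2a and Cdkn2b, cell cycle inhibitor genes at which BMI1 and CBX7 are known repressors, were looked at after their values had been seen. Cdkn2a read 89.3 and 70.4 on the Rbp2f/f arrays with LIF and 96.5 and 173 without. Readings in Rbp2-/- were 93.9 and 112 with LIF, and 88.6 and 60.4 without. The means were higher without LIF in Rbp2f/f and lower in Rbp2-/-, and neither difference passed (0.61 ± 0.28 and -0.41 ± 0.28, limma adjusted p = 0.134 and 0.357). Cdkn2b was uneven, at 242 and 64.5 against 265 and 502 in Rbp2f/f (1.40 ± 0.51, limma adjusted p = 0.0689) and 152 and 285 against 142 and 166 in Rbp2-/-. Cdkn2b was called higher in Rbp2f/f on the values as deposited (limma adjusted p = 0.0229) and with median centring (0.0447). The interaction was -1.02 ± 0.40 for Cdkn2a and -1.81 ± 0.72 for Cdkn2b, and neither passed (limma adjusted p = 0.423 and 0.427).

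The genes whose log2 values followed the called members most closely over the 8 arrays were found by Pearson correlation, which here describes mainly the step between media. For Cbx7 they were Farsb, Gsta4 and Azin1 (r = 0.996, 0.996 and 0.995), a subunit of phenylalanyl-tRNA synthetase, a glutathione transferase and an antizyme inhibitor. Gsta4 differed by -2.87 in Rbp2f/f and -2.60 in Rbp2-/- on withdrawal, and Farsb by -0.90 and -0.80. For Cbx2 they were Bcorl1, Lclat1 and Igfbp4 (r = 0.991, 0.979 and 0.976), with Bcorl1 also in the list of variant subunits. For Bmi1 they were Sox17, Cd164 and Akt1 (r = 0.995, 0.983 and 0.983). Sox17 differed by 2.47 in Rbp2f/f and 0.89 in Rbp2-/- on withdrawal. Genes picked for following Bmi1 share its larger difference in Rbp2f/f by that choice, so they are no support for it.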

How the data were processed

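The deposited values are intensities per probe set on a linear scale, summarised by the authors from 8 arrays. Total RNA was labelled as biotin cRNA, per the labels' protocols. The software that summarised and scaled the arrays was not given in the sources used here. Levels are therefore not compared between probe sets. Probe sets were named from the platform's annotation, and those with several genes or none were left out. Arrays were quantile normalized and values taken as log2(value + 16), a scale that understates changes of dim genes. For a gene with several probe sets the brightest on average was used, and genes at or above the 40th percentile of that mean were tested (10916 of 18193). Limma 3.58.1 in R 4.3.3 fitted 4 group means over all 8 arrays, with a mean-variance trend, 4 residual degrees of freedom and Benjamini-Hochberg adjustment over all genes tested, called under 0.05. The number of arrays limits the precision.

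Named genes were the members, the deleted gene, up to 6 called genes per list with the smallest adjusted p, and the 3 genes most like each called member. Genes that missed the test and are named beside them (Phc3, Pcgf1, Kdm2b, Bcor, Cdkn2a and Cdkn2b) were added after the values were seen. The members and lists were chosen with earlier results of these data known. The fit was tested on simulated data in which 200 of 10916 genes changed on withdrawal in Rbp2f/f. It recovered 36.7% of log2 changes of 1 and 84.3% of changes of 2, so changes of 1 were often missed there. In the real withdrawal in Rbp2f/f 27.2% of genes were called, and the adjustment is less strict when more genes change. The simulated shares therefore do not give the power of that test. Promoter sequences are those of RefSeq and read in the direction of the gene. Alternatives changed the normalization, pseudocount, filter, choice of probe set, variance model or threshold, blocked on the replicate number, or dropped 1 array. Counts over lists under other scalings, with no filter and without the dim array were added after the data were seen.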

Additional observations from a re-analysis of the deposited data

How the results depend on the processing

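The members' 35 log2 differences (7 genes in 5 comparisons) were recomputed under 21 alternatives. Few of them were called in the main fit, and in the genotype comparisons and the interaction no gene was. A value that stayed uncalled therefore shows little, and the pooled count below is no measure of how firm the calls are. The calls that were lost were those of Cbx2 and Bmi1 in Rbp2f/f. Of the 725 values, 712 kept their side of the threshold, 8 lost a call, 5 gained a call and 0 reversed a call, while 30 that were not called in either setting changed sign. Cbx7 stayed called lower in both genotypes under all 21, at -2.70 to -1.57 in Rbp2f/f and -2.25 to -1.62 in Rbp2-/-. On the values as deposited Cbx2 (0.87, limma adjusted p = 0.0347) and Bmi1 (0.79, 0.0495) were called beside Cbx7 in Rbp2-/- on withdrawal. All genes had a median shift of 0.39 there. The share of all genes called in that setting is not given, so these calls are not read as a result about the set. Leaving out 1 array gave 1 to 4 called members for withdrawal in Rbp2f/f, with Cbx7 alone called without replicate 1 of Rbp2f/f lacking LIF and 4 without the dim array, where the brighter Cbx6 probe set on average became the other one. With the probe sets and tested genes of all 8 arrays kept, the number of all genes called also changed with the array left out. The member counts are therefore not read as a result about the members. In that setting Cbx6 in Rbp2f/f stood at -0.60 without the dim array. That alternative was added after the data were seen. Bmi1 was not tested under the 60th percentile filter, nor was Ring1. Of all genes, the genotype comparison with LIF called 28 as deposited and 24 without replicate 1 of Rbp2-/- with LIF, and that without LIF called 225 with array weights and 34 without replicate 2 of Rbp2-/- lacking LIF, none of them members.

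With the replicate number as a block, 3 members were called in Rbp2f/f and 1 in Rbp2-/- on withdrawal, as without it, and 3258 and 1918 of all genes against 2965 and 1695. Between genotypes the block called 3 genes with LIF and 31 without, and 1 in the interaction, no member among them. The same-numbered arrays' deviations correlated at -0.07 to 0.27 across genes, the 3 pairs with Rbp2f/f with LIF lying at -0.07 to -0.001 and the other 3 at 0.25 to 0.27. Not every pair was above 0.1, so the numbers were not taken to pair the samples, although they may do so in part. With no filter the H2A deubiquitination list gave 1 higher and 1 lower in Rbp2f/f and 1 higher in Rbp2-/-, and other canonical subunits gave 1 higher in Rbp2f/f, where more genes were tested. As deposited the H2A list gave 2 higher and 0 lower in Rbp2f/f. No shares of all genes are given for these list counts, so they are not read as results about the lists. The low signal of Cbx8 and of the dimmer probe sets limits what can be seen of them.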
